A study of Mus musculus with 4 samples.

Results

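Elastic fibres give large arteries their recoil, and the genes described here encode their parts and the glycoproteins that surround vascular smooth muscle cells (SMCs). The set held 10 genes: the elastic fibre genes Eln, Fbn1, Fbln1, Fbln2, Fbln5 and Lox, and the matrix glycoprotein genes Fn1, Tnc, Thbs1 and Vcan. They were chosen by symbol for their role, with earlier results of these data known. A peak belonged to a gene when the authors' annotation named that gene. Of the 10 genes, 6 had a PRDM6 peak and 4 had none, and together they took 30 of the 13977 peaks of the list, which named 5243 gene symbols in all.

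The study asked where PRDM6, a PR domain zinc finger protein of SMCs, sits on chromatin. Cultured outflow tract SMCs, isolated from mouse embryos, were infected with a lentivirus that expressed FLAG-tagged PRDM6. The study describes isolating outflow tract SMCs from embryos with a floxed Prdm6 gene. Formaldehyde-fixed chromatin of the infected cells was cut with micrococcal nuclease, sonicated and precipitated through the tag. There were 4 libraries: 2 of the PRDM6 ChIP group and 2 of the Input group, the latter being chromatin of such cells without the precipitation. The protein detected was therefore tagged and overexpressed, and the study describes its precipitations both as coming from 1 sample and as independent, so that the spread between them may be technical. Input values entered only through the authors' peak calls, and a list of peaks carries no expression, so the labelled cell type was not checked against marker transcripts here.

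In an elastic fibre, elastin (Eln) is laid down on a scaffold of fibrillin-1 microfibrils (Fbn1), the fibulins (Fbln1, Fbln2 and Fbln5) link elastin, microfibrils and cells, and lysyl oxidase (Lox) cross-links the elastin. Fibronectin (Fn1) forms the provisional matrix on which other fibrils assemble. Tenascin-C (Tnc) and thrombospondin-1 (Thbs1) are matricellular proteins that tune adhesion and growth factor signalling in remodelling vessels, and versican (Vcan) is the large hyaluronan-binding proteoglycan of the vessel wall.

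The stretches of sequence below are a selection, and no Lox peak is printed. The first is from the 1 peak of these genes that passed a global irreproducible discovery rate (IDR) of 0.05. Next come a peak of that class on Fbn1 and one before Fn1 that the annotation gave to other genes. The last stretches are from the Vcan peaks with a TEAD or AP-1 motif within 100 bp of the summit. Each is the 201 bases within 100 bp of the summit in the GRCm38 (mm10) genome, read 5′ to 3′ on the minus strand, which is the coding strand of all 4 genes. Capitals mark matches, on either strand, to an AP-1 motif (TGAGTCA or TGACTCA), a TEAD motif (AGGAATGC, AGGAATGT, GGGAATGC or GGGAATGT) or the short motif TTTCAT or TTTCCT. Coordinates are those of the printed stretch.
Tnc, 28617 bp upstream, chr4:64076699-64076899: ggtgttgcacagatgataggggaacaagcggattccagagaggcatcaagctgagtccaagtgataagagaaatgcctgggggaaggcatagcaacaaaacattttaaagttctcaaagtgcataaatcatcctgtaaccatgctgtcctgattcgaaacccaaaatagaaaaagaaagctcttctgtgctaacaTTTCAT
Fbn1, late intron, chr2:125304883-125305083: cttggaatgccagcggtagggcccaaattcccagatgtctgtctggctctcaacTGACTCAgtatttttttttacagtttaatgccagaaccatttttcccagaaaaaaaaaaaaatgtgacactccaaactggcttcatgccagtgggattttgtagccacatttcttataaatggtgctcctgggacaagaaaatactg
Fn1, 37676 bp upstream, chr1:71691713-71691913: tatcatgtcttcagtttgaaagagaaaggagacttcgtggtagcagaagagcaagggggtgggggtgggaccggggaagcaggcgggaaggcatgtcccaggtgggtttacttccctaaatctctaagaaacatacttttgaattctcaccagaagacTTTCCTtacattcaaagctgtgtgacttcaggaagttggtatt
Vcan, first intron, chr13:89738979-89739179: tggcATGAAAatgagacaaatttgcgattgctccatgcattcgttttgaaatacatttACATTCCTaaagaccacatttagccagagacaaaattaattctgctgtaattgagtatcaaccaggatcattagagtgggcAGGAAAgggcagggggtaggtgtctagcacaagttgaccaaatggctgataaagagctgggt
Vcan, 71505 bp upstream, chr13:89814051-89814251: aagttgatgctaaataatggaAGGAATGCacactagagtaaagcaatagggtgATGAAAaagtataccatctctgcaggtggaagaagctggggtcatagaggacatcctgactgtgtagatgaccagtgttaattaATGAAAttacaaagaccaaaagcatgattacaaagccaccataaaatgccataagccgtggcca
Vcan, 146374 bp upstream, chr13:89889247-89889447: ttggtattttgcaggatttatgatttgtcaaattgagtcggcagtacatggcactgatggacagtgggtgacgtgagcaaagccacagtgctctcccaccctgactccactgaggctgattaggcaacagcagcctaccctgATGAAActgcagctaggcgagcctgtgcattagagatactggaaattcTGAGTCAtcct

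Peaks were unevenly spread over the genes. Tnc had 9 peaks, Vcan 8, Lox 5, Fbn1 4, Thbs1 3 and Fbln1 1, and Eln, Fbln2, Fbln5 and Fn1 had 0 each. The 6 genes with a peak stood against a background in which 19.9% of 21728 protein-coding genes had an assigned peak, or 25.9% of the 11315 genes within these genes' range of lengths (13801 bp to 207400 bp). With only 10 genes the 95% Wilson interval of the share, 60.0%, ran from 31.3% to 83.2%. The matrix genes were long, with a median body of 70086 bp against 17429 bp over all protein-coding genes. When a peak was counted for any gene on whose body, or on the 3 kb before it, it lay, whatever gene was named, 7 of the 10 genes had one, against 15.5% of all protein-coding genes and 20.8% of those in the same range of lengths. The gene gained was Fn1. On the bodies alone there were 19 peaks in 0.736 Mb, or 2.58 per 100 kb, against 0.687 per 100 kb over all protein-coding genes.

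**Figure D1:**
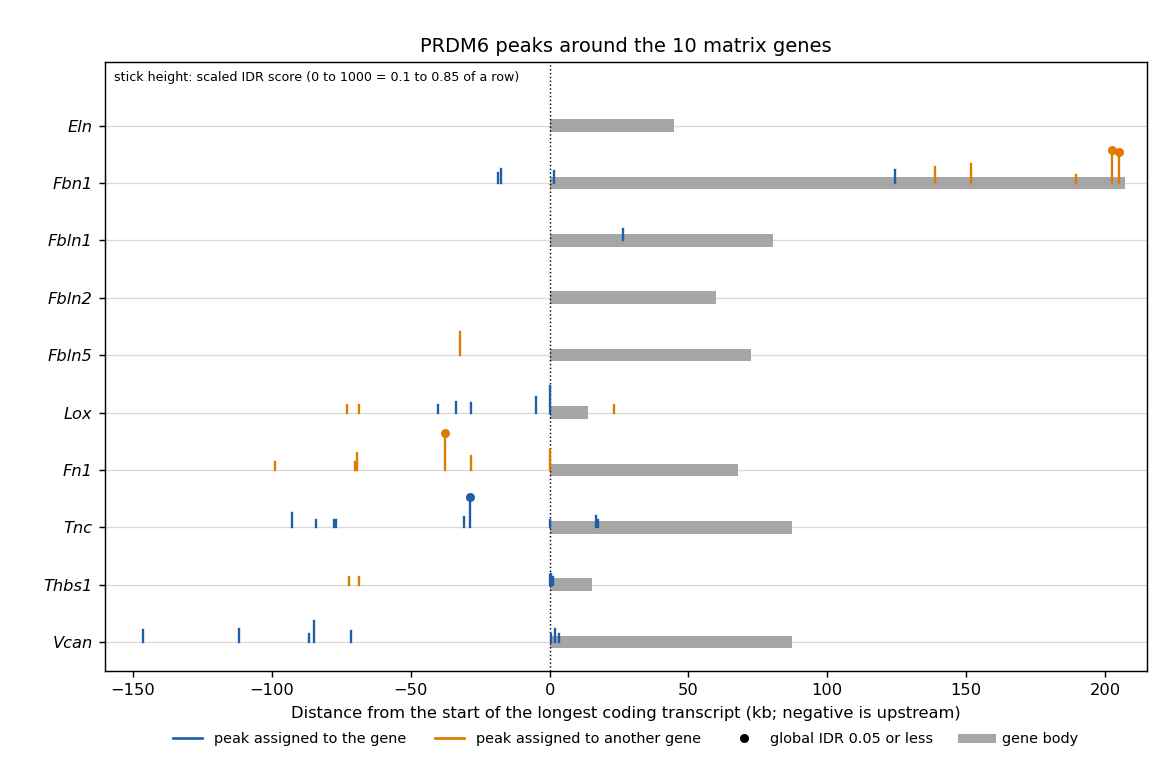
Each row is one gene, with distance from the start of its longest coding transcript in kb on the horizontal axis (negative is upstream), its body as a grey bar and every peak as a stick whose height is the scaled IDR score; peaks of other genes are drawn within 100 kb of the start or on the body. Blue sticks are peaks assigned to the gene and orange sticks are peaks assigned to another gene, dots mark a global IDR of 0.05 or less, and Eln and Fbln2 have no stick.

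**Figure D2:**
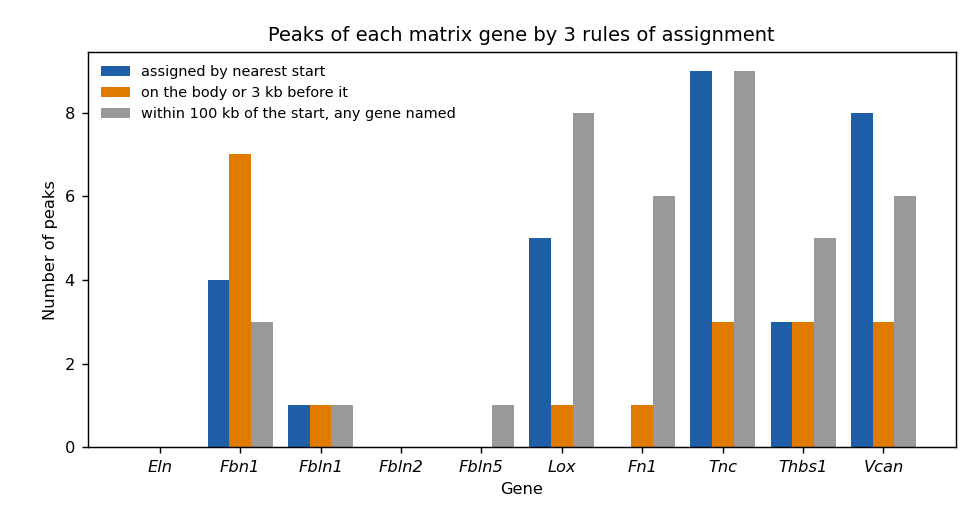
Bars give the number of peaks of each gene under 3 rules: the gene named by the annotation, peaks on the gene body or the 3 kb before it, and peaks within 100 kb of the start whatever gene was named. Fbn1 rises from 4 to 7 and Fn1 from 0 to 1 when the body counts, while Tnc falls from 9 to 3 and Vcan from 8 to 3.

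The strength of a peak is given as the −log10 of the authors' p-value in each replicate, named by its order in the list because the list does not say which library it was. The scaled IDR score runs from 48 to 1000, and 540 stands for a global IDR of 0.05. Over the 30 peaks the matched strength, taken as the lower of both replicates, stood at a median of 5.69 with quartiles of 4.95 and 6.84, and over all peaks 5.53 with quartiles of 4.39 and 6.92. Only 1 of the 30 peaks met the IDR limit of 0.05 (3.33%, 95% Wilson interval 0.591% to 16.7%), which is the 3.33% found over the whole list, and 0 met that of 0.01. A count of 0 in 30 allows up to 3 peaks, or a share of up to 10.0%, and the Wilson upper limit is 11.4%. At the gene level 1 of the 10 genes had such a peak, against 1.60% of all protein-coding genes. The lowest score, with a global IDR of 0.759, was held by 10 of the 30 peaks (33.3%) and by 41.4% of the list. The first-listed replicate was the stronger one in 18 of the 30 peaks, against 52.1% of the whole list. The median distance between the summits of both replicates was 181 bp for the 30 peaks and 121 bp for the list. The summits were 416 bp apart in the Tnc peak within the IDR limit, 824 bp in the strongest Vcan peak and 526 bp in the peak over the Fn1 start, so a stretch around the matched summit shows only part of such a peak.

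**Figure D3:**
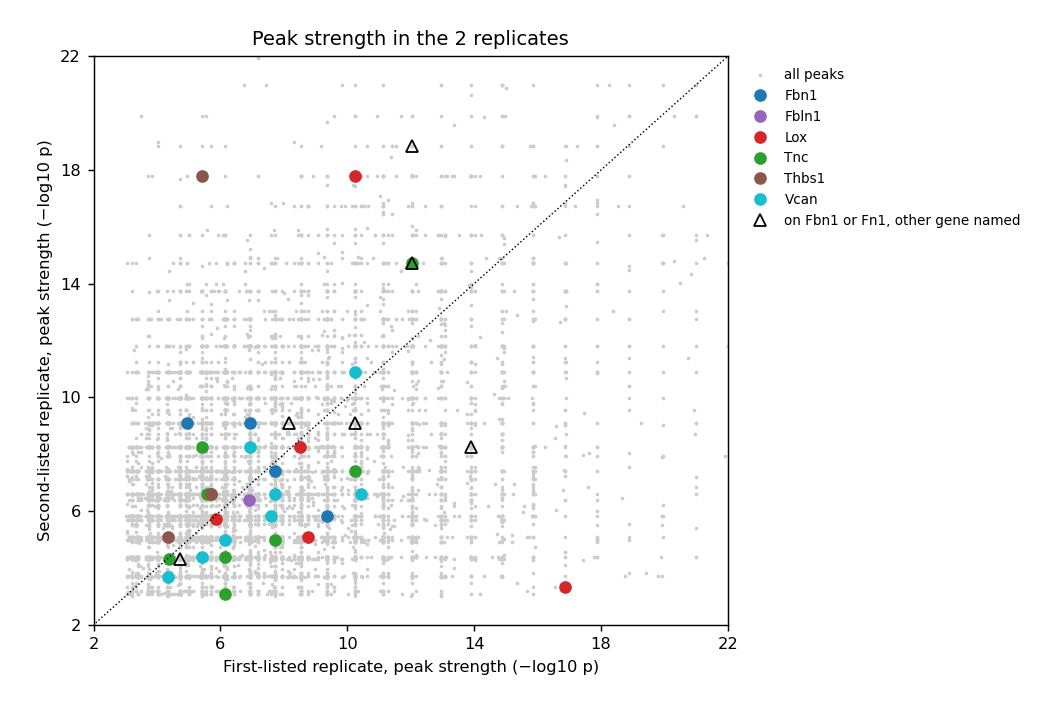
Every point is a peak, with its −log10 p in the first-listed replicate on the horizontal axis and in the second-listed replicate on the vertical axis; grey points are the whole list (102 peaks lie beyond the axes, which end at 22), coloured points the 30 assigned peaks, open triangles the 6 peaks on Fbn1 or Fn1 that name another gene, and the dotted line marks equal strength. Most matrix gene peaks lie below 11 in both replicates, and 1 Lox peak at 16.85 and 3.33 and 1 Thbs1 peak at 5.42 and 17.78 lie far from the line.

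Elastin itself had no peak nearby. The closest peak of any gene to the start of Eln (chr5:134702593-134747323, minus strand) lay 570658 bp away and carried the lowest score, 48. Around Fbln2 (chr6:91212455-91272540, plus strand), whose fibulin binds elastin and fibrillin-1, the closest peak lay 135790 bp upstream and was assigned to Nup210, with strengths of 3.70 and 6.61 in the first-listed and second-listed replicates. For Fbln5 (chr12:101746565-101819055, minus strand), the fibulin needed to assemble elastic fibres, the closest peak was stronger. It was 1540 bp wide, lay 32392 bp upstream in an intron of Trip11 and reached 10.23 and 13.73, with a score of 404 and a global IDR of 0.107. The recovered heights of that peak were 18 and 21 fragments. Fbln1 (chr15:85205949-85286535, plus strand) had 1 peak, chr15:85232253-85232935, over exon 8 of 17, with strengths of 6.89 and 6.39 and a global IDR of 0.468. None of the 3 fibulin genes had a peak at its start.

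Fibrillin-1 had the most peaks on its body that the annotation named for another gene. Fbn1 covers chr2:125300594-125507993 on the minus strand, and the authors' annotation named it for 4 peaks, none with a score above 180. The peak nearest its start, chr2:125505670-125506498, overlapped the start of a shorter transcript, had its nearer edge 1495 bp inside the longest coding one and had strengths of 9.37 and 5.84, or 17 and 12 fragments. The intronic peak chr2:125382469-125383540 had 6.92 and 9.10. The pair upstream, chr2:125525570-125526297 and chr2:125526448-125526739, had 7.71 and 7.42, and 4.94 and 9.10. The strongest of the 4 by score was the first of that pair, with 180 and a global IDR of 0.372.

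A further 5 peaks lay inside the Fbn1 body and were named for Dut, the dUTPase gene past its 3′ end, whose start was the nearer one. In the annotation, 9 peaks were named for Dut in all, and the other 4 lay between Dut and Fbn1. Both of the strongest peaks on Fbn1 were in this class. The peak chr2:125304097-125305464, in intron 64 of 65 of the transcript that the authors used, reached 12.03 and 18.83, or 20 and 26 fragments, with a score of 641 and a global IDR of 0.0282. The peak chr2:125301753-125302837, which reached the last exon, had 12.03 and 14.71, or 20 and 22 fragments, with a score of 576 and a global IDR of 0.0407. Their summits in the replicates lay 3 bp and 13 bp apart. The remaining 3 had scores of 310, 235 and 48. By overlap, Fbn1 thus held 7 peaks instead of the 2 assigned on its body, and 2 of them passed the IDR limit that no peak assigned to it passed. Of the 3376 protein-coding genes with a peak on the body or the 3 kb before it, 11.4% had no assigned peak at all; Fbn1 was not among them, but Fn1 was.

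Lysyl oxidase had one of the strongest start site peaks of the set. The Lox gene lies at chr18:52516067-52529867 on the minus strand, and the peak chr18:52529178-52530461 covered its start with strengths of 10.23 and 17.78, or 18 and 25 fragments. Its score of 479 was exceeded by 4.37% of the list, and its global IDR was 0.0692. The other 4 Lox peaks lay 4807 bp, 28464 bp, 33795 bp and 40168 bp upstream, with scores of 218, 92, 113 and 48. The peak 28464 bp upstream was 3006 bp wide, and 0.215% of all peaks were at least as wide. It was also the least even between replicates, at 16.85 in the first-listed and 3.33 in the second-listed replicate. An AP-1 motif lay 3 bp from the summit of that peak and 18 bp from the summit of the peak 4807 bp upstream.

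Fibronectin had no peak by name and a broad one by position. Fn1 covers chr1:71585520-71653200 on the minus strand, and the peak chr1:71652202-71656095 overlapped its start. It was 3894 bp wide, a width reached by 7 peaks of the list (0.0501%), and its strengths were 13.90 and 8.27 with a score of 330. The annotation named it for Apol7d, an antisense noncoding gene that starts inside Fn1 on the opposite strand, and all 7 peaks of that name lay at or upstream of the Fn1 start. The strongest of them, chr1:71690876-71692488, lay 37676 bp upstream of Fn1 and reached 13.37 and 17.78, with a score of 715 and a global IDR of 0.0191. Its score was above that of every peak assigned to the 10 genes or lying on them. Which of these genes, if any, the region acts on was not tested.

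Tenascin-C had the most assigned peaks of the set and the only assigned one within the IDR limit. Tnc covers chr4:63959785-64047015 on the minus strand. The peak chr4:64075632-64077477 lay 28617 bp upstream, was 1846 bp wide and reached 12.03 and 14.71, or 20 and 22 fragments, with a score of 565 and a global IDR of 0.0437. Next to it, 30781 bp upstream, lay a peak of 5.42 and 8.25. The peak over the start of the gene, chr4:64046832-64047509, was weak, at 5.69 and 6.61 with the lowest score. Further upstream, 3 peaks between 76981 bp and 84267 bp had the lowest score too, and the farthest, 92747 bp upstream, had a score of 205 with 10.23 and 7.42. The annotation placed the last 2 peaks 8648 bp and 9385 bp upstream of a short Tnc transcript, but both lay in the first intron of the longest one, 17323 bp and 16595 bp past its start.

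Thrombospondin-1 peaks were all at the start of the gene. Thbs1 covers chr2:118111876-118127133 on the plus strand, and its 3 peaks spanned 3.41 kb. The peak over the start, chr2:118110100-118112145, was 2046 bp wide and differed between the replicates, at 5.42 in the first-listed and 17.78 in the second-listed replicate, or 12 and 25 fragments. Its score was 97. The peaks 580 bp and 1067 bp past the start had 5.69 and 6.61, and 4.33 and 5.10, with scores of 122 and 48. On its body of 15258 bp these made 19.7 peaks per 100 kb, against 7.25 per 100 kb for Lox with 1 peak on its body, but the 3 Thbs1 peaks became 1 when peaks less than 1 kb apart were merged.

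Versican peaks fell into a group at the 5′ end and a group far upstream. Vcan covers chr13:89655312-89742509 on the minus strand. The 3 peaks of the first group were classed as promoter peaks through a shorter transcript, and lay in the first intron of the longest one, 579 bp, 2096 bp and 3267 bp past its start. Their strengths were 5.42 and 4.39, 6.92 and 8.25, and 6.15 and 4.98. The other 5 lay between 71505 bp and 146374 bp upstream, inside the body of Xrcc4, the neighbouring gene for a DNA repair protein. The annotation named 0 peaks for Xrcc4, but by overlap these 5 would count for it. The strongest Vcan peak was among these 5. It was chr13:89827459-89828860, 84950 bp upstream, with strengths of 10.23 and 10.89, or 18 fragments in each replicate, a score of 354 and a global IDR of 0.141. At its summit the GC content was 28.4%, the lowest of the 30 peaks, whose median was 43.3% against 43.8% over the list.

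By place, 9 of the 30 peaks (30.0%, 95% Wilson interval 16.7% to 47.9%) were promoter peaks, within 3 kb of a start by the authors' rule, against 21.3% of all peaks. A start site was overlapped by 5 of the 30 (16.7%, interval 7.34% to 33.6%), against 6.64%. Only 3 of these, those of Lox, Tnc and Thbs1, covered the start of the longest coding transcript. Intronic peaks numbered 12 (40.0%, against 35.9% of the list), exonic peaks 7 (23.3%, against 4.10%) and distal intergenic peaks 2 (6.67%, against 37.2%). The authors' annotation took introns and exons of any gene, and many of these were noncoding genes on the opposite strand. The starts of Eln, Lox, Fn1, Tnc and Vcan, 5 of the 10, lay inside such a gene, against 7.06% of all protein-coding genes. Of the 19 peaks that the annotation placed over 3 kb upstream, 16 (84.2%) overlapped an opposite-strand noncoding gene, against 6.52% of 4264 such peaks of coding genes over the list. These 16 peaks lay in the noncoding genes beside Lox, Tnc and Vcan alone, so they stand for 3 loci and not for 16 separate cases. The antisense gene over the start of Eln held no peak.

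Motif shares at the summits had wide intervals, since they rest on 30 peaks. The AP-1 motif, the site of JUN and FOS factors, lay within 100 bp of the summit in 3 of 30 peaks (10.0%, 95% Wilson interval 3.46% to 25.6%), of which 2 belonged to Lox and 1 to Vcan, against 14.3% of all peaks. The AP-1 share turned on which summit was used: it was 1 of 30 (3.33%) at the summits of the first-listed replicate, against 13.3% of all peaks, and 4 of 30 (13.3%) at those of the second-listed replicate, against 12.3%. The TEAD motif, the site of the factors that carry YAP signals, lay in 2 of 30 (6.67%, interval 1.85% to 21.3%), both of Vcan, against 7.45%. The short motif TTTCAT or TTTCCT lay in 13 of 30 (43.3%, interval 27.4% to 60.8%), of which 6 belonged to Vcan, against 43.1%. The CArG box, the site of serum response factor, lay in 0 of 30 summit windows (Wilson upper limit 11.4%, or 10.0% by 3 counts in 30), against 1.41% of all peaks. Over their whole width, 3 peaks held a CArG box. In the peaks at the starts of Lox and Thbs1 it lay 462 bp and 217 bp from the summit. In the Lox peak 4807 bp upstream it lay 128 bp from the summit. No whole-width share over all peaks is given here. The 1.41% covers summit windows only and is no background for this count. The strongest peak on Fbn1, which was named for Dut, held an AP-1 motif 43 bp from the summit. The strongest peaks of Tnc and of the region before Fn1 had neither an AP-1 nor a TEAD motif in the printed stretch. A match is a description of letters, and binding of these factors was not measured.

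**Figure D4:**
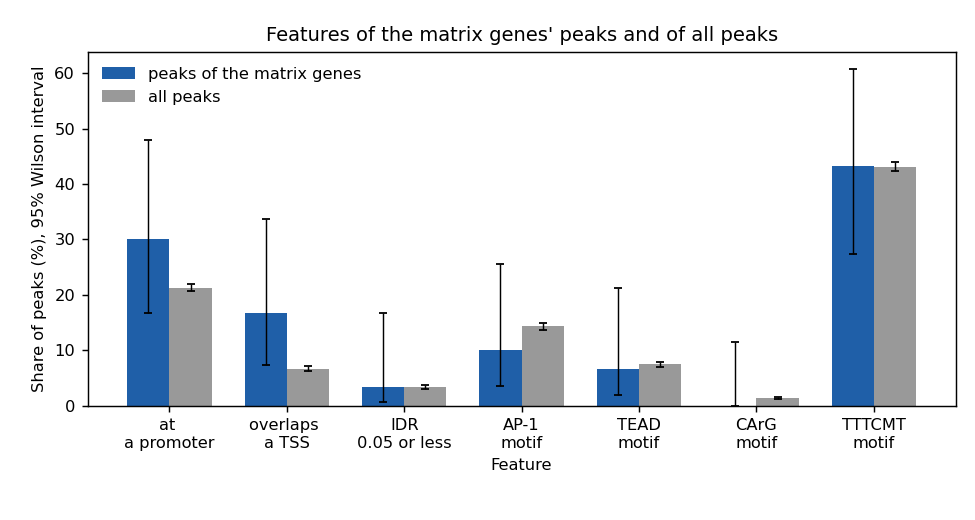
Bars give the share of peaks, in percent, with each feature among the 30 peaks of the matrix genes (blue) and all 13977 peaks (grey), with 95% Wilson intervals for counting error as lines. The intervals of the blue bars take in the grey value for every feature but the overlap of a start site, where 16.7% stands against 6.64%.

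Other genes of these pathways were counted by lists drawn up for the same roles, also with earlier results of these data known. Of 21 further elastic fibre genes, 8 had an assigned peak, and of 31 further matricellular and hyaluronan matrix genes, 15 had one. Together these were 23 of 52 genes (44.2%, 95% Wilson interval 31.6% to 57.7%) with 97 peaks, against 19.9% of all protein-coding genes. The lengths of the listed genes were not compared. In the elastic fibre list, Efemp1, which encodes fibulin-3, had 13 peaks, none within the IDR limit, and Ltbp1, which encodes a TGF-β binding protein of microfibrils, had 10. One Ltbp1 peak had the highest score, 1000. Over the 10 Ltbp1 peaks the highest strengths were 16.85 in the first-listed and 24.33 in the second-listed replicate. Hmcn1, which encodes hemicentin-1, had 7 peaks. In the other list, Has2, the main hyaluronan synthase of the developing heart, had 8 peaks, Postn and Cyr61 had 7 each, Spp1, Wisp1 and Cd44 had 6 each, and Tnr and Thbs2 had 5 each. Has2, Spp1 and Wisp1 each had 1 peak within the IDR limit of 0.05, with best scores of 746, 690 and 819. In all, 4 of the 52 genes had such a peak, against 1.60% of all protein-coding genes.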

How the data were processed

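The measurements were ChIP-seq peaks of FLAG-tagged PRDM6. The authors filtered paired reads, aligned them to mm10 with BWA, kept a mapping quality of at least 13, called peaks with MACS2 against the matching input at p below 0.001, matched both replicates by IDR and annotated the result by nearest transcription start site. The deposited list gave a scaled IDR score, and deposited −log10 p-values and −log10 IDR values stood beside it. No IDR limit had been applied. Read totals were not given in the sources used here. Heights were read back from −log10 p-values within 0.0002 of the Poisson tails of a genome-wide background (means of 2.61 and 2.39 fragments, which held 58.3% and 63.5% of the values), and heights on a higher local background were not recovered. Peaks were joined to their annotation by position, and gene models were those of GENCODE M21 (basic set), the genome GRCm38. Distances not taken from the annotation run from the start of the longest coding transcript. Motifs were searched on both strands, and the sequence of 1 peak on Fbn1 is not reported here. The height recovery was tested on values simulated from the same kind of Poisson tails, and the motif search on planted AP-1 motifs. These simulations check the code and cannot show that the deposited p-values follow that model. All comparisons are descriptions without a test, since every value of a peak exists once per replicate; Wilson intervals cover counting error over peaks only. All 10 genes were described, with every peak within an IDR of 0.05, each gene's strongest peak and the peak nearest its start, and listed genes were named if they had at least 5 peaks or a peak within that limit. The genes, lists and motifs were chosen with earlier results of these data known. Alternatives were IDR limits of 0.05 and 0.01, distances of 100 kb and 10 kb, overlap with the gene, merging within 1 kb, other motif windows and each replicate alone. Software was pysam 0.24.0, SciPy 1.17.1, pandas 2.3.3, NumPy 2.4.6, matplotlib 3.10.9 and Python 3.11.15.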

Additional observations from a re-analysis of the deposited data

How the results depend on the processing

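The count of genes with a peak fell from 6 to 1 at an IDR limit of 0.05 and to 0 at one of 0.01, and the count of peaks from 30 to 1 and 0. That 1 peak lay at no promoter (0%), had no AP-1 motif (0%) and had a matched strength of 12.03. Within 10 kb of a start 12 peaks were left, on 5 genes, and 19 peaks lay on a gene body or the 3 kb before it. The AP-1 share was 3.33% at the summits of the first-listed replicate, against 10.0% at the matched summits, where the list had 13.3% and 14.3%. The median strength was 5.69 for the smaller value of the replicates and ran from 6.61 to 6.90 with either replicate alone, which is higher by construction. The other 14 of 26 alternatives left the counts within 1.5 times and the shares within their intervals, and for single genes 36 of 60 alternatives left the count within 1.5 times. With 30 peaks, a count of 0 allows a share of up to 10.0% (3 counts). No paired analysis was possible because no result compares groups and the list gives no separate value of the Input group.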
